A study of Arabidopsis thaliana with 12 samples.

Results

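The genes described here encode the cytosolic proteins of the large (60S) ribosomal subunit in Arabidopsis thaliana. A list of 60 loci from 27 protein families was used, and a locus counted as measured where the platform annotation gave a probe set to it alone. This held for 41 loci from 21 families, out of 13286 loci measured in this way on the array, and each had 1 such probe set. The remaining 19 loci were not analysed here; the pair AT1G74060 and AT1G74050 (2 of the 19) shared a single probe set. No locus of the families L3, L5, L11, L23a or L24 was measured, and none of L10, so the list reaches neither the proteins that escort the 5S rRNA nor most of the proteins near the catalytic centre. One measured locus, AT3G48130, named RSU1 in the L13 family, is a transcribed pseudogene in the RefSeq gene table and not a protein gene.

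Ribosomal proteins of the large subunit are assembled onto rRNA in the nucleolus and most are present in equal copies in each ribosome. In plants almost every family is encoded by several paralogous genes, whose transcripts are usually regulated together with growth and the supply of nutrients. In seeds, ribosomes made during filling translate the storage proteins, and the dry seed keeps ribosomes and stored mRNA that are used when it imbibes. The uniform names of the ribosome field are given in brackets where they help, such as uL1 for L10a.

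Transcripts were measured on 12 Affymetrix ATH1 arrays of excised seeds of the accession Wassilewskija (WS), grown in a greenhouse under long days. The groups were WT and KD seeds at 14 and 16 days after flowering (14DAF, mid maturation, and 16DAF, the end of reserve accumulation) and as dry seeds, with 2 arrays in each of the 6 groups. KD is labelled a mutant with altered lysine metabolism and is referred to Zhu and Galili, whose work joined a knockout of the lysine-degrading enzyme LKR/SDH to a bacterial enzyme of lysine synthesis expressed in seeds. The labels do not spell out the alleles of KD. Each extract was made from a large pool of whole seeds, so it mixed embryo, endosperm and seed coat, and the RNA was amplified in the Affymetrix labelling with an added cycle.

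Replicate arrays correlated at r = 0.983 to 0.993 across probe sets. LKR/SDH (AT4G33150), the first enzyme of lysine breakdown, lay between log2 8.87 and 10.61 in the 6 WT arrays and between 12.8 and 13.88 in the 6 KD arrays, so its signal was higher in KD and checks no knockout. The source name contradicts the title in 2 arrays. Their LKR/SDH signal followed the title, at 9.8 in WT 16DAF replicate 1 and 12.83 in KD dry replicate 1. Of the cell type markers on the lists, 0 of 7 embryo and 0 of 7 endosperm loci were measured, so the seed identity of the samples rests on the labels. Of 8 seed coat markers 3 were measured and of 8 silique wall and funiculus markers 1 was.

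**Figure D1:**
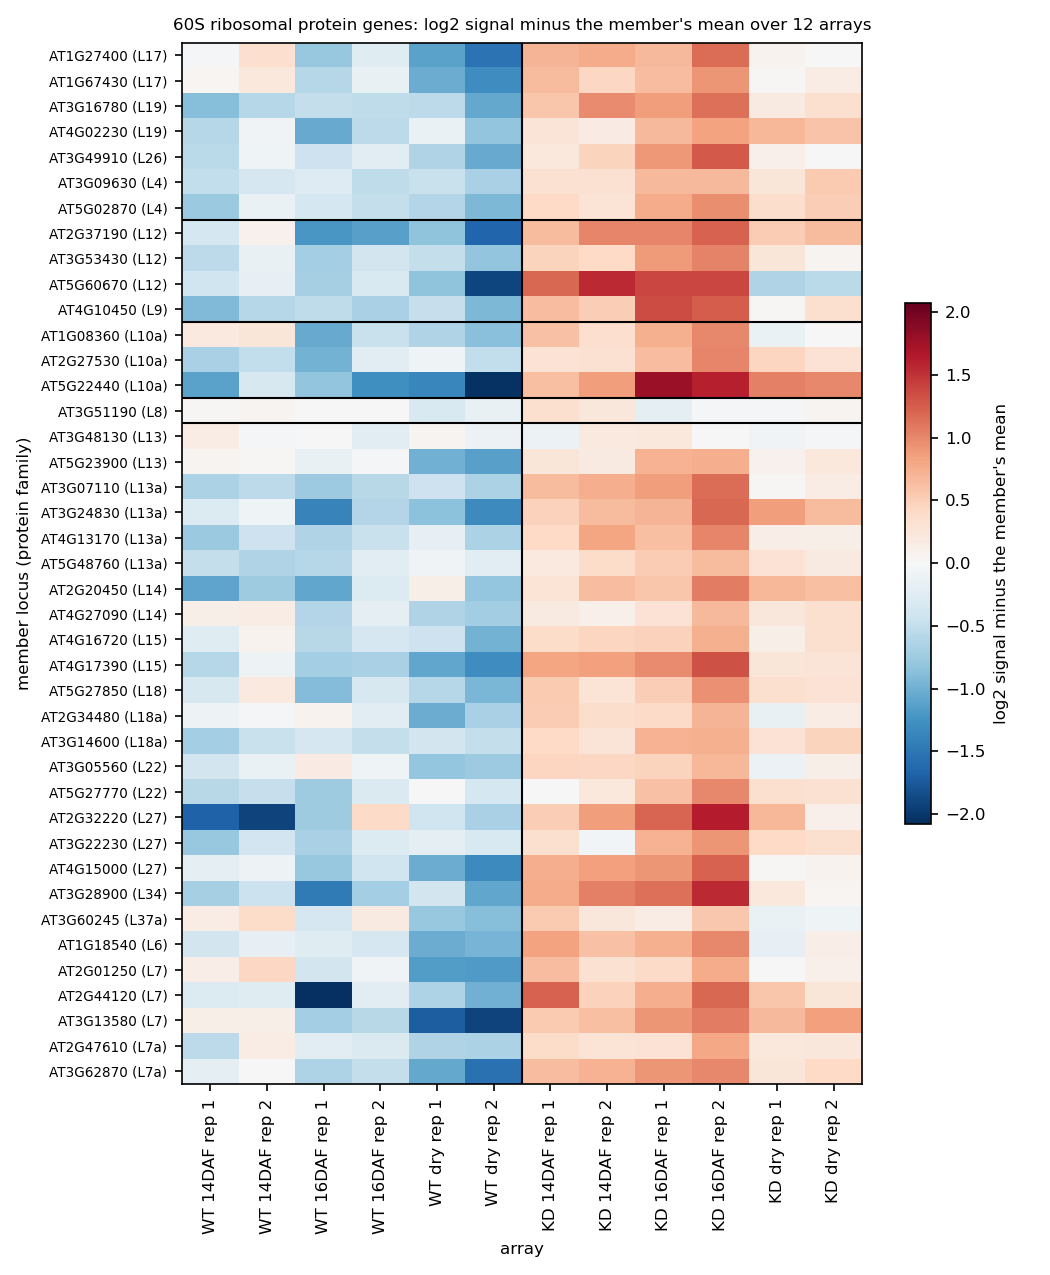
Log2 signal of the 41 measured loci (rows, with protein family) on the 12 arrays (columns), each minus the locus' own mean over the arrays. Black lines part WT from KD and, from the top, exit tunnel, stalk base, L1 stalk, L8 and the solvent side with other positions. In 18 of the 41 rows every WT column is blue and every KD column red; in other rows such as AT2G01250 the WT 14DAF columns are also red, and in AT5G60670 the KD dry columns are blue.

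The first question was how KD seeds differed from WT seeds of the same stage. Transcripts of 60S proteins were higher in KD at all 3 stages, and none was lower past the threshold. Averaged over the stages, 39 of the 41 loci were higher in KD, with a median log2 difference of 1.03. The calls used limma with an adjusted p below 0.05 over all 22746 probe sets, of which 8.72% were called higher in the same comparison and whose median difference was -0.01. In 27 of the 41 loci every one of the 6 KD arrays lay above every one of the 6 WT arrays, whatever the stage, against 1.29% of all probe sets. The loci that did not pass were AT3G51190 (L8) and the pseudogene AT3G48130. Their arrays ranged from 3.5 to 4.14 and from 3.02 to 3.46, around or below the arrays' lower quartiles of 3.67 to 3.78, so neither was shown to be above background.

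At 14DAF, 21 of 41 loci were higher in KD, with a median of 0.74, against 3.35% of all probe sets. At 16DAF, 37 were higher, with a median of 1.42, against 5.22%, and 0 were lower by limma, against 5.88%. At an unadjusted p below 0.05, 0 loci were lower at 16DAF as well, where 3137 of the 22746 probe sets were. In dry seeds 27 loci were higher, with a median of 0.95, against 4.01%. A difference of at least 2-fold was reached by 12, 32 and 17 loci at the 3 stages, where 1.8%, 2.89% and 2.13% of all probe sets reached it. Every KD array lay above every WT array of the same stage in 37, 38 and 40 of the 41 loci (24.9%, 21.5% and 23.7% of all probe sets), and at all 3 stages in 36 loci (5.15%). Of the 41 loci, 14 were called at all 3 stages (0.822% of all probe sets), 19 at 2 stages (2.18%), 5 at 1 stage (5.75%) and 3 at 0 (91.2%).

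The counts at single stages depended on single arrays. At 14DAF the 21 calls became 11 and 12 without WT replicates 1 and 2, and 13 and 7 without KD replicates 1 and 2. In dry seeds the 27 calls became 13 without WT dry replicate 2 and 11 without KD dry replicate 2. At 16DAF between 28 and 36 calls were made without any single array, and for the average over stages 38 or 39. Fitted on the arrays of the contrast alone, the 37 calls at 16DAF became 26. In the same setting the 21 at 14DAF became 16 and the 27 in dry seeds became 35. Repeats were collected for each stage, but no label ties them to separate plants or sowings. A p-value here thus reflects the spread of these samples alone, and that spread may be technical.

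**Figure D2:**
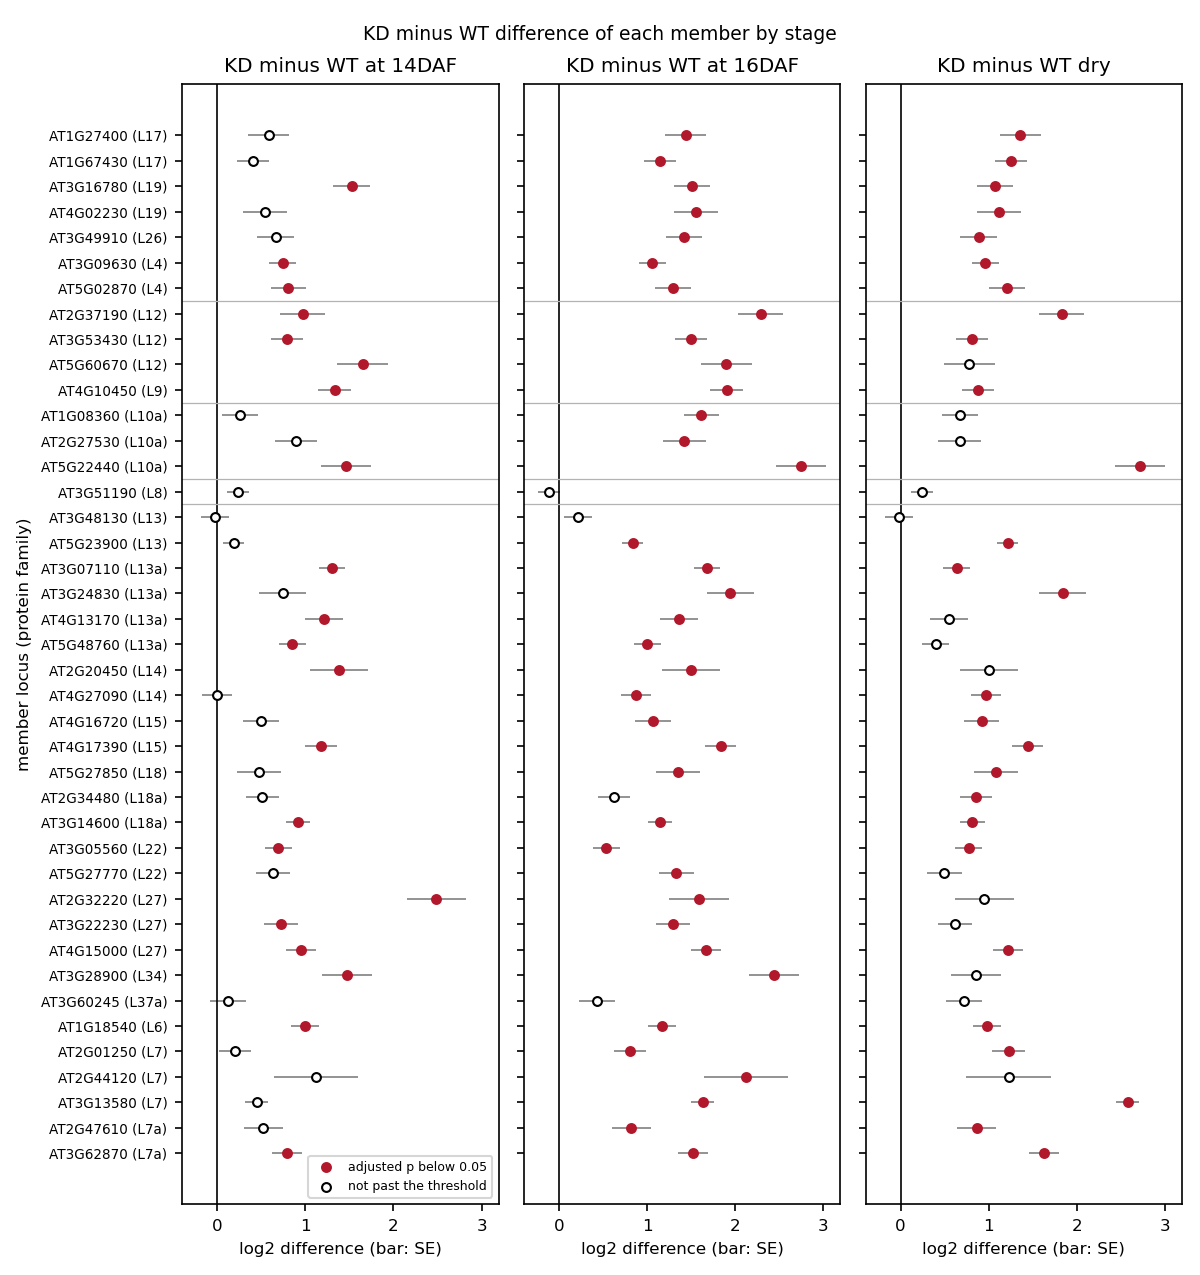
KD minus WT log2 difference of each of the 41 loci at 14DAF, 16DAF and in dry seeds; points are limma estimates, bars are standard errors, and filled points have an adjusted p below 0.05. The filled points number 21, 37 and 27 and all lie to the right of 0.

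The proteins that line the polypeptide exit tunnel or ring its mouth were measured by 7 loci of the families L4 (uL4), L17 (uL22), L19 (eL19) and L26 (uL24). L4 and L17 reach into the tunnel, and L26 sits at its rim. All 7 were higher in KD at 16DAF and in dry seeds, and 3 at 14DAF. Of all 41 loci, 37, 27 and 21 were (5.22%, 4.01% and 3.35% of all probe sets). In dry seeds every call of the 7 but that of AT1G67430 (L17) was lost on leaving out at least 1 of the dry arrays. The 14DAF calls of both L4 genes, AT3G09630 and AT5G02870, were also lost on leaving out single arrays. The differences of the 7 at 16DAF ran from 1.06 (SE 0.152, AT3G09630, L4) to 1.55 (SE 0.25, AT4G02230, L19). Those of all 41 loci, these 7 included, ran from -0.11 to 2.75. The low end was AT3G51190, which was not shown to be above background.

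AT3G09630, one of the L4 genes, had the same signal in both KD replicates of the developing seed. Its log2 values in WT were 11.05 and 11.22 at 14DAF, 11.3 and 11.04 at 16DAF, and 11.1 and 10.89 in dry seeds. In KD they were 11.88 and 11.88, then 12.23 and 12.23, then 11.81 and 12.1. No KD array overlapped the WT arrays, and the average difference was 0.92 (SE 0.0878, adjusted p = 9e-05 by limma). AT3G16780 of the L19 family, whose protein also forms a bridge to the small subunit, was higher by 1.52 at 14DAF (SE 0.205), 1.51 at 16DAF and 1.07 in dry seeds. In that gene the WT arrays spanned 8.03 to 8.61 and the KD arrays 9.29 to 10.24. The call in dry seeds was lost without WT dry replicate 2 (adjusted p = 0.101) and without KD dry replicate 2 (0.0964).

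The L17 genes AT1G27400 and AT1G67430 measured 0.59 and 0.41 at 14DAF, not past the threshold. They were higher in KD by 1.44 and 1.15 at 16DAF and by 1.36 and 1.25 in dry seeds, where AT1G27400 did not pass without WT dry replicate 2 (adjusted p = 0.065). AT3G49910, the L26 gene, stood at 10.81 and 11.18 in the KD 16DAF arrays against 9.48 and 9.67 in WT, a difference of 1.42 (SE 0.209, adjusted p = 0.00244). Its 14DAF difference of 0.67 did not pass (adjusted p = 0.0896).

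Among the 41 loci, the 3 L12 genes (uL11) and the L9 gene AT4G10450 (uL6) measured the base of the stalk that recruits elongation factors. The L9 protein lies beside the factor-binding loop of the rRNA. All 4 genes were higher in KD at 14DAF and 16DAF, and 3 in dry seeds. Of all 41 loci, 21, 37 and 27 were higher by stage (3.35%, 5.22% and 4.01% of all probe sets). Leaving out single arrays ended the 14DAF and dry calls of the L12 gene AT3G53430 and the dry call of AT4G10450. The L12 gene AT2G37190 read 9.3 and 9.37 in the WT 16DAF arrays and 11.52 and 11.73 in KD, a 4.89-fold difference (log2 2.29, SE 0.256, adjusted p = 0.00075). Across all stages its WT arrays lay between 8.85 and 10.59 and its KD arrays between 11.02 and 11.73. Its 14DAF call (0.97, adjusted p = 0.0484) was lost under 11 of the alternatives, among them leaving out any 1 of the 4 arrays at 14DAF.

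AT5G60670, another L12 gene, differed most before drying. Its WT arrays read 8.18 and 8.42 at 14DAF, 7.89 and 8.27 at 16DAF, and 7.75 and 6.68 in dry seeds. Its KD arrays read 9.77 and 10.13, then 9.98 and 9.98, then 7.96 and 8.03. The differences were 1.65 (SE 0.292, adjusted p = 0.00883), 1.9 (adjusted p = 0.00298) and 0.78 (adjusted p = 0.151), and the dry KD arrays fell inside the range of WT at 14DAF and 16DAF. The 14DAF call was lost without KD 14DAF replicate 2 (adjusted p = 0.0844). AT4G10450 lay between 5.17 and 5.62 in every WT array, around the medians of 4.91 to 5.28 over all probe sets of an array. In KD it read 6.75 and 6.62, 7.46 and 7.36, and 6.12 and 6.43 in order of stage, and the largest of its differences was 1.9 at 16DAF (SE 0.185, adjusted p = 0.000443).

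The L1 stalk, which moves with the departing tRNA, is formed by L10a (uL1), measured by 3 genes. AT5G22440 showed the widest gap of all 41 loci at 16DAF and in dry seeds. Its WT arrays read 6.52 and 7.3 at 14DAF, 6.82 and 6.36 at 16DAF, and 6.28 and 5.59 in dry seeds. Its KD arrays read 8.25 and 8.5, 9.42 and 9.25, and 8.67 and 8.63. The highest WT array was thus below the lowest KD array, and the differences were 1.46 (SE 0.284, adjusted p = 0.0138), 2.75 (adjusted p = 0.000561) and 2.71 (adjusted p = 0.000526). At 16DAF that is 6.7-fold. The 14DAF call was lost without WT 14DAF replicate 1 (adjusted p = 0.0567) or KD 14DAF replicate 2 (0.109).

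The other L10a genes passed only at 16DAF and for the average over stages. AT1G08360 differed by 0.26, 1.61 and 0.68 at the 3 stages, and PGY1 (AT2G27530), known from leaf patterning mutants, by 0.9, 1.43 and 0.67. AT1G08360 read 11.41 and 11.46 in WT and 11.83 and 11.56 in KD at 14DAF, and 10.17 and 10.76 in WT against 11.95 and 12.21 in KD at 16DAF.

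The remaining 26 loci belong to families that lie mainly on the solvent side of the subunit, and 25 of them were higher in KD on average. Of all 41 loci 39 were, against 8.72% of all probe sets. In the L7 family (uL30), AT3G13580 differed most in dry seeds. It read 7.82 and 7.62 in dry WT seeds and 10.21 and 10.38 in dry KD seeds, a 5.96-fold difference (log2 2.58, SE 0.133, adjusted p = 2.06e-05). At 14DAF it read 9.66 and 9.66 in WT and 10.07 and 10.15 in KD, a difference of 0.45 that did not pass (adjusted p = 0.0732). Its paralog AT2G01250 followed a like course at a smaller size, with 0.2, 0.81 and 1.23, where the 16DAF call was lost without WT 16DAF replicate 1 (adjusted p = 0.087) or KD 16DAF replicate 2 (0.141). For the third, AT2G44120, 1 WT array stood apart: WT 16DAF replicate 1 read 6.89 and replicate 2 read 8.74, and the 16DAF difference of 2.12 was 1.2 without WT 16DAF replicate 1, one of the arrays with contradictory labels. Its call was lost without KD 16DAF replicate 1 (adjusted p = 0.0529) or replicate 2 (0.118), and without both contradictory arrays (0.0535).

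The L34 gene AT3G28900 read 7.46 and 8.21 in WT at 16DAF and 10.07 and 10.47 in KD, a difference of 2.44 (SE 0.283, adjusted p = 0.000831). It differed by 1.48 at 14DAF, a call lost without either WT 14DAF array (adjusted p = 0.0525 and 0.0557) or KD 14DAF replicate 2 (0.108), and by 0.86 in dry seeds, where it did not pass (adjusted p = 0.102). The L27 gene AT2G32220 held the widest gap at 14DAF, 2.48 (SE 0.337, adjusted p = 0.00266), where WT read 6.35 and 6.11 and KD read 8.54 and 8.89. In dry seeds it read 7.61 and 7.35 in WT and 8.72 and 8.14 in KD, and the difference of 0.95 did not pass (adjusted p = 0.129).

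The 4 L13a genes (uL13) were all higher at 16DAF, by 1.68 (AT3G07110), 1.95 (AT3G24830), 1.36 (AT4G13170) and 1 (AT5G48760). AT3G24830 kept a gap of 1.84 in dry seeds (SE 0.266, adjusted p = 0.00261), where the others measured 0.64, 0.55 and 0.4. Of those only AT3G07110 passed in dry seeds, and not without any 1 of the 4 dry arrays (adjusted p = 0.0599 to 0.207). In L15 (eL15), AT4G17390 differed by 1.18, 1.83 and 1.44, with no overlap between its WT arrays (9.69 to 10.88) and its KD arrays (11.23 to 12.3). AT3G62870 of the L7a family (eL8) was higher by 0.79, 1.52 and 1.63, and its 14DAF call was lost without any 1 of the 4 arrays of that stage (adjusted p = 0.0656 to 0.13). AT1G18540, the measured L6 gene, was higher by 1, 1.17 and 0.98, and its call in dry seeds was lost without KD dry replicate 2 (adjusted p = 0.0587).

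The smallest average differences among the loci that passed were 0.43 for AT3G60245 (L37a), 0.61 for AT4G27090 (L14), 0.66 for AT2G34480 (L18a) and 0.67 for AT3G05560 (L22). AT3G60245 (L37a, eL43), with WT arrays of 11.73 to 13 and KD arrays of 12.48 to 13.17, passed for the average over stages only (0.43, SE 0.118, adjusted p = 0.0274). That call was lost under 9 alternatives, with adjusted p up to 0.088. AT3G05560 (L22) was higher by 0.69, 0.54 and 0.77, and its 16DAF call (adjusted p = 0.0486) was lost under 16 alternatives. Its 14DAF call was lost without any 1 of the 4 arrays of that stage (adjusted p up to 0.122), and its call in dry seeds without 3 of the 4 dry arrays (up to 0.125). AT2G34480 (L18a) passed in dry seeds alone among the stages, with 0.85 (SE 0.182, adjusted p = 0.0187), lost without WT dry replicate 1 (0.131) or KD dry replicate 2 (0.164). AT4G27090 (L14) read 11.96 and 11.99 in WT and 12.02 and 11.93 in KD at 14DAF, with equal means, and was higher in KD by 0.88 at 16DAF and 0.97 in dry seeds. The first call was lost without KD 16DAF replicate 2 (adjusted p = 0.0823), and the second without WT dry replicate 2 (0.0661) or KD dry replicate 2 (0.071).

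Some markers of other tissue also differed between genotypes. The mean signal of the 3 seed coat markers was 5.46 and 5.58 in the WT 16DAF arrays and 6.06 and 6.25 in the KD 16DAF arrays. Only 1 of the 3, DELTA-VPE (AT3G20210), was higher in KD there (1.86, SE 0.456, adjusted p = 0.0267 by limma). The others overlapped at 16DAF: AT1G61720 read 4.48 and 4.65 in WT and 4.55 and 4.77 in KD. AT5G42800 read 6.47 and 6.27 in WT and 6.4 and 6.24 in KD. At 14DAF the mean of the 3 markers overlapped between genotypes (7.56 and 8.5 in WT, 8.21 and 7.1 in KD), and in dry seeds it read 3.97 and 4.12 against 4 and 4.06. The part of tissue makeup in the 16DAF difference was not tested. The silique marker ALC (AT5G67110) lay between 3.39 and 4.26 in every array. Those values lie around the arrays' lower quartiles of 3.67 to 3.78, so ALC was not shown to be above background. Its signal was lower in KD at 16DAF (3.98 and 4.04 in WT, 3.54 and 3.61 in KD). Both KD arrays read below both WT arrays at the other stages too, and ALC was lower in KD on average (-0.25, SE 0.0662, adjusted p = 0.0221); its part in the 60S difference was not tested. For the actin, GAPDH and ubiquitin controls, the excess of 3' over 5' log2 signal, a measure of RNA integrity and labelling, was 4.11 ± 0.08 in WT and 3.85 ± 0.37 in KD at 14DAF, 3.9 ± 0.49 and 3.57 ± 0.25 at 16DAF, and 3.35 ± 0.13 and 3.4 ± 0.1 in dry seeds (SD, n = 2). In whole seeds, a change in the share of a cell type and a change in its RNA content cannot be told apart.

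The second question was how the transcripts changed as WT seeds matured and dried. From 14DAF to 16DAF few moved past the threshold: 3 of 41 fell (10.3% of all probe sets did) and 1 rose (9.2%), with a median change of -0.18. The 3 were AT2G37190 of the stalk base (-1.02, SE 0.256, adjusted p = 0.0181), AT1G08360 of the L1 stalk (-0.97, SE 0.2, adjusted p = 0.00692) and AT3G13580 of L7 (-0.77, SE 0.133, adjusted p = 0.00273). The call of AT2G37190 was lost without WT 14DAF replicate 2 (adjusted p = 0.151), WT 16DAF replicate 1 (0.0559) or WT 16DAF replicate 2 (0.0526), and that of AT1G08360 from the arrays of this contrast alone (0.0658). The gene that rose was AT2G32220 of L27, from 6.35 and 6.11 to 7.29 and 8.43 (1.63, SE 0.337, adjusted p = 0.00706). The rise was 1.06 without WT 16DAF replicate 2, and it did not pass without WT 14DAF replicate 2 (adjusted p = 0.0548) or from the arrays of this contrast alone (0.0609). The seed coat markers fell in this step and on drying (2 of 3 passed in each genotype at each step). The shares of all probe sets falling were 10.3% early and 16.9% on drying in WT, and 4.86% and 15.3% in KD. The part of the markers in the stage changes was not tested. The number of 60S loci falling early was 7 without WT 16DAF replicate 2, and the median was -0.34 and -0.03 without WT 14DAF replicates 1 and 2 and -0.095 without WT 16DAF replicate 1.

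On drying of WT seeds, from 16DAF to the dry state, 12 of 41 loci fell and 0 rose past the threshold by limma. Of all probe sets, 16.9% fell and 20.4% rose. At an unadjusted p below 0.05, 15 loci fell and 0 rose, where 4562 and 5500 of the 22746 probe sets did. The median change of the 41 loci was -0.24. AT3G13580 fell by 1.17 (SE 0.133, adjusted p = 6.53e-05), from 8.83 and 8.95 to 7.82 and 7.62. AT5G23900, the measured L13 protein gene, fell by 0.96 (SE 0.121), AT2G01250 of L7 by 0.94 (SE 0.182) and AT3G05560 of L22 by 0.81 (SE 0.153). AT5G60670 measured -0.86 (adjusted p = 0.0394), and its call was lost under 10 alternatives, with adjusted p up to 0.326 without WT dry replicate 2, where the change was -0.33, against -1.4 without WT dry replicate 1. The L17 genes AT1G27400 (-0.8, adjusted p = 0.0197) and AT1G67430 (-0.78, adjusted p = 0.00646) fell too, but without WT dry replicate 2 neither passed (0.148 and 0.0561). The median was -0.39 and -0.07 without WT dry replicates 1 and 2, the count falling was 6 without WT dry replicate 2, and 2 rose without WT 16DAF replicate 2.

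Changes on drying are relative to arrays whose medians also moved. Centring each array on its median shifted the change of all probe sets by 0.2 in WT and 0.18 in KD for this step. With that centring the WT median of the 41 loci was -0.03, with 10 falling and 2 rising, so that a fall of the list as a whole in WT depends on the scale.

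**Figure D3:**
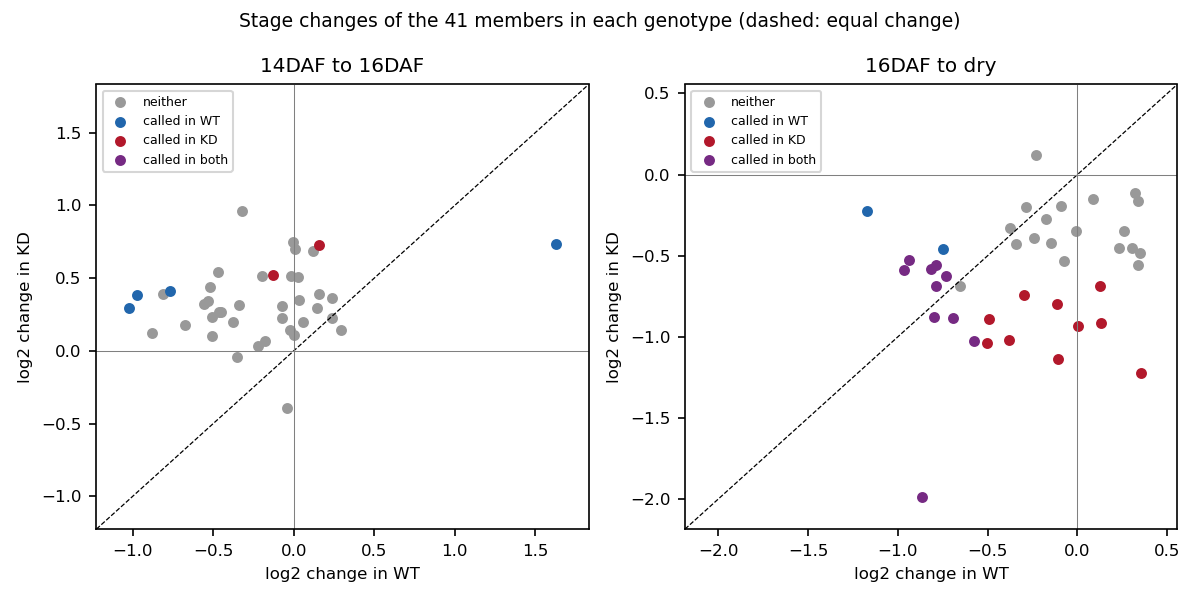
Log2 change of each of the 41 loci in WT (horizontal) and KD (vertical) from 14DAF to 16DAF and from 16DAF to dry seeds, coloured by whether it was called in a genotype; the dashed line marks equal change. In the left panel 37 of the points lie above the line, and in the right panel 30 lie below it.

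In KD seeds the early step raised 2 of 41 loci, AT4G10450 of the stalk base (0.72, SE 0.185, adjusted p = 0.0367) and AT5G23900 of L13 (0.52, SE 0.121, adjusted p = 0.0256), and lowered 0. By adjusted p, 4.63% of all probe sets rose and 4.86% fell. At an unadjusted p below 0.05, 11 loci rose and 1 fell, where 2690 and 2696 of the 22746 probe sets did. The median change of the loci was 0.32, with 39 of 41 estimates above 0, and 0.15 without KD 16DAF replicate 2. Both calls were lost without any 1 of the 4 KD arrays of this step, and the count rising became 5 on leaving out a WT array of 14DAF, 6 on leaving out one of 16DAF, and 8 with the arrays centred.

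Drying lowered 20 of 41 loci in KD and raised 0 by limma, against 15.3% and 19.6% of all probe sets. At an unadjusted p below 0.05, 26 loci fell and 0 rose, where 4286 and 5380 of the 22746 probe sets did. The median of the 41 loci was -0.56. AT5G60670 of L12 fell by 1.99 (SE 0.292, adjusted p = 0.000377), from 9.98 and 9.98 to 7.96 and 8.03, a 3.96-fold fall. AT3G28900 of L34 fell by 1.22 (SE 0.283), AT4G10450 of L9 by 1.14 (SE 0.185), AT3G49910 of L26 by 1.04 (SE 0.209), and the L27 genes AT4G15000 and AT2G32220 by 1.02 each. AT2G32220 lost its call without KD 16DAF replicate 2 (adjusted p = 0.191) or KD dry replicate 2 (0.237), among 6 alternatives, and AT3G28900 without KD 16DAF replicate 2 (0.0545). Leaving out KD 16DAF replicate 2 gave 10 falling, and leaving out KD dry replicate 1 gave 12. Without the pair of arrays with contradictory labels 13 fell, as they did with centred arrays, where the median was -0.38.

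Of the loci that fell on drying, 10 fell in both genotypes (12% of all probe sets did), 2 in WT alone (4.92%) and 10 in KD alone (3.35%) by these calls. Those counts do not show a difference between the genotypes, for which the test is the interaction of genotype with stage. For the drying step that test called 1 locus in each direction, against 0.765% of all probe sets higher and 0.611% lower. For the early step it called 1 locus with a higher change in KD, against 0.202%, and 0 lower, against 0.154%. At an unadjusted p below 0.05, 19 loci were higher and 0 lower in the early step, where 1575 and 1550 of the 22746 probe sets were. Over the 41 loci the median difference between KD and WT was 0.57 for the early step and -0.34 for drying. The latter was -0.095 without WT dry replicate 1. The 16DAF comparison of KD with WT and both steps share the 16DAF arrays.

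AT3G13580 of L7 was called in both interactions. Between 14DAF and 16DAF it changed by -0.77 in WT and 0.41 in KD, a difference of 1.18 (SE 0.188, adjusted p = 0.0442). On drying it changed by -1.17 in WT and -0.23 in KD, a difference of 0.94 (SE 0.188, adjusted p = 0.0427). AT3G07110 of L13a changed by 0.13 in WT and -0.91 in KD on drying, a difference of -1.04 (SE 0.211, adjusted p = 0.0446). Its WT arrays stayed between 10.26 and 10.59 throughout, while its dry KD arrays (11.05 and 11.18) lay below the other KD arrays (11.68 to 12.18). All 3 of these calls lay near the threshold, and most single arrays, when left out, ended them.

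Paralogs of a family differed in their courses. In L12, AT5G60670 changed by -1.99 on drying in KD, AT3G53430 by -0.8 (SE 0.18, adjusted p = 0.00558) and AT2G37190 by -0.54 (adjusted p = 0.141). In L27, AT2G32220 rose early in WT while AT3G22230 measured 0.12 and AT4G15000 measured -0.45, neither past the threshold. In L10a, AT1G08360 fell early in WT, where AT2G27530 measured -0.01 and AT5G22440 measured -0.32. In L14, the 14DAF difference between KD and WT was 1.38 for AT2G20450 (adjusted p = 0.0337, lost without any 1 of the 4 arrays at 14DAF) and 0 for AT4G27090. These contrasts between paralogs were not tested against each other. Of the 14 families with at least 2 measured loci, 13 had every measured locus higher in KD on average, the exception being L13 with its pseudogene. Of all 41 loci 39 were higher on average, against 8.72% of all probe sets.

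**Figure D4:**
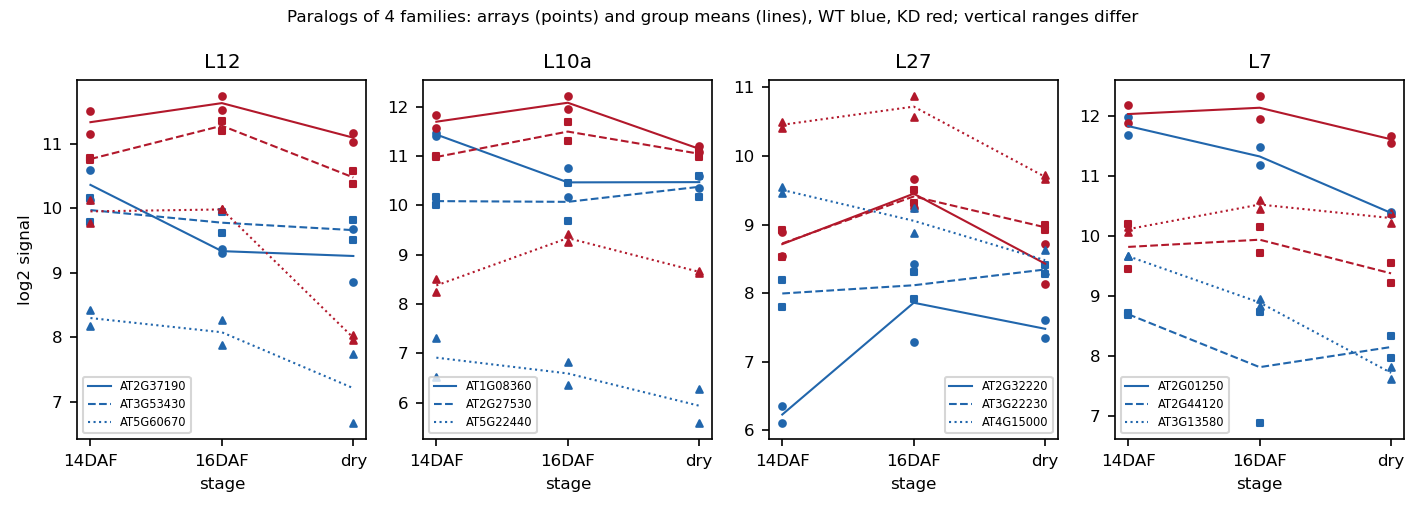
Log2 signal of the paralogs of L12, L10a, L27 and L7 by stage, with points for the 2 arrays of a group, lines for group means, WT in blue and KD in red; symbols and line styles mark the locus. In AT5G22440 all KD points lie above all WT points, and in AT5G60670 the KD line drops on drying to about the level of WT at 16DAF.

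The rest of the translation machinery was read from lists of loci. Of 91 loci of the small (40S) subunit 45 were measured. On average 38 of the 45 were higher and 0 lower in KD (8.72% and 11.5% of all probe sets), with a median of 0.87. By stage 13, 37 and 30 of the 45 were higher (3.35%, 5.22% and 4.01% of all probe sets), with 1 lower at 14DAF (3.92%). On drying 16 fell in WT and 23 in KD (16.9% and 15.3% of all probe sets), and 0 rose (20.4% and 19.6%). The listed P proteins, which belong to the stalk of the 60S subunit itself, were all measured (12 of 12). Of these 10 were higher in KD at 16DAF (5.22% of all probe sets). They were led by the P1 genes AT5G47700 (2.04, SE 0.246) and AT4G00810 (2.03, SE 0.18) and the P2 gene AT2G27710 (1.91, SE 0.212). On drying in KD 7 of the 12 fell (15.3% of all probe sets), among them AT2G27710 by 1.74 (SE 0.212), and 0 rose (19.6%).

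Factors that assemble and export the 60S subunit took another course through maturation. Of 24 listed factors 14 were measured, and all 14 were higher in KD on average, with a median of 1. At 14DAF 13 were higher in KD, led by the BRX1 homolog AT1G52930 (2.42, SE 0.248, adjusted p = 0.000763) and the SDA1 homolog AT1G13160 (2.04, SE 0.193, adjusted p = 0.000588). In dry seeds 5 were higher. The shares of all probe sets higher in KD were 8.72% on average, 3.35% at 14DAF and 4.01% in dry seeds. In WT 12 of the 14 rose from 14DAF to 16DAF and 5 rose on drying (9.2% and 20.4% of all probe sets rose), with 0 falling, where the 60S protein genes gave 1 rising early and 0 on drying. In KD 3 rose early (4.63% of all probe sets) and 1 fell on drying (15.3%). The mean log2 signal of the 14 went from 7.46 ± 0.09 through 8.4 ± 0.31 to 8.92 ± 0.15 in WT (SD, n = 2), while that of the 41 60S loci went from 9.45 ± 0.17 through 9.25 ± 0.2 to 8.97 ± 0.23.

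**Figure D5:**
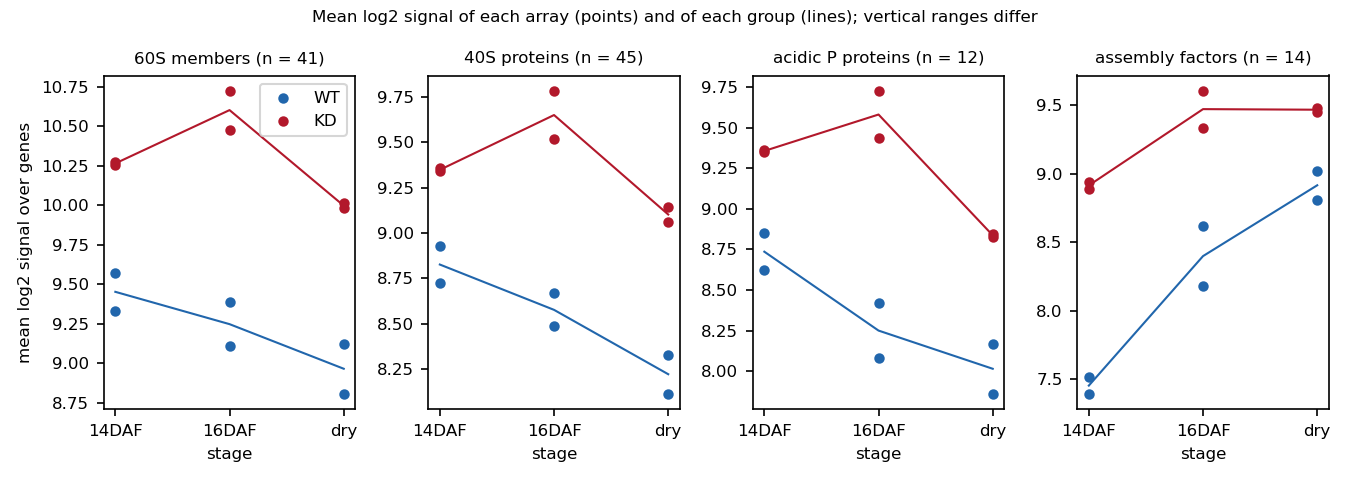
Mean log2 signal over the measured genes of 4 lists by stage, with a point for each array and lines for group means, WT in blue and KD in red. The KD arrays lie above the WT arrays of the same stage in all 4 lists, and the assembly factors rise with stage in WT while the 3 lists of ribosomal proteins do not.

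Of 14 listed translation factors 3 were measured, and 1 was higher in KD on average, against 8.72% of all probe sets. It was the elongation factor subunit gene AT5G19510 (0.92, SE 0.113, adjusted p = 0.000374 by limma). Of 21 nuclear genes for the large subunit of plastid ribosomes 5 were measured. Among these 5, 0 were higher or lower in KD at any stage or on average by limma. In dry seeds 1 was higher at an unadjusted p below 0.05, where 2157 of the 22746 probe sets were. At a single stage 3.35% to 5.88% of all probe sets passed in each direction, so 0 of 5 does not set these genes apart. On drying 3 rose in each genotype (20.4% of all probe sets in WT and 19.6% in KD), such as AT2G43030 by 1.48 (SE 0.275) in WT and 2.08 in KD. Of 7 loci for the TOR kinase complex and S6 kinases, which set ribosomal protein synthesis to nutrient supply, 2 were measured. Both were subunits of the RAPTOR type, and 0 differed between genotypes. With 2 loci, a count of 0 does not set them apart from all probe sets either. RAPTOR2 (AT5G01770) fell early by 0.86 in WT (SE 0.14, adjusted p = 0.00189) and 0.83 in KD.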

How the data were processed

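The authors deposited log2 values. The submitters' processing notes name RMA and Partek, without versions or settings, and the log2 scale was inferred from the range of the values. RMA aligns the arrays, so a shift of all transcripts would be hidden. Of 22810 probe sets, 64 controls were removed. The platform annotation gave 1 gene to 13513 probe sets and several to 503, and listed none for 8730, unnamed here. All 41 measured members were matched to the TAIR10.1 gene table. Models with 6 group means were fitted over all 12 arrays with limma 3.58.1 in R 4.3.3 (eBayes, 6 residual and 4.16 prior degrees of freedom) for 10 contrasts, two-sided, with Benjamini-Hochberg adjustment over all probe sets. Errors beside differences are standard errors of this fit. The number of arrays limits the precision. The fit was tested on simulated data.

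The members and lists were chosen with earlier results of these data known. Every measured member could be named. Per contrast, full values were given for up to 6 called members with the largest change in each direction and for the extremes of families and roles, and for other lists up to 3 called genes. Alternatives left out each array, centred or quantile-normalized the arrays, dropped probe sets with a mean below log2 5, used a variance trend, a replicate block or the contrast's arrays alone, or left out the 2 arrays with contradictory labels. No per-sample column was left unused (0). Plots were drawn in matplotlib 3.10.9 and pandas 2.3.3 under Python 3.11.15.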

Additional observations from a re-analysis of the deposited data

Results flagged for a closer look

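The stage changes of 2 loci differed between the genotypes by the interaction test. AT3G13580 of the L7 family changed by 1.18 more in KD than in WT from 14DAF to 16DAF (SE 0.188, adjusted p = 0.0442 by limma) and by 0.945 more on drying (SE 0.188, adjusted p = 0.0427). AT3G07110 of the L13a family differed by -1.045 on drying (SE 0.211, adjusted p = 0.0446). Under the alternatives these calls were lost more often than they were kept.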

How the results depend on the processing

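The higher level of the 60S loci in KD averaged over stages kept 38 or 39 of 41 calls under every alternative. With the arrays centred, WT drying gave 2 higher and a median of -0.035, the early KD step 8 higher, KD drying 13 lower and a median of -0.375, and the drying interaction 0 higher. Quantile normalization gave 8 lower for the early WT step, a median of -0.389 for WT drying and 1 higher for the early KD step. Dropping dim probe sets gave 6 higher for the early KD step and 0 in each direction for the drying interaction. A variance trend gave 5 lower for the early WT step and 0 higher for both interactions. The contrast's arrays alone gave 0 higher for the early WT step, 26 higher for KD minus WT at 16DAF and 0 for both interactions. Without the 2 arrays with contradictory labels KD drying had 13 lower, KD minus WT at 16DAF a median of 1.195, and both interactions 0 calls. Taking the mean of all probe sets of a locus changed nothing, as each had 1. With a replicate block, 0 loci rose in the early KD step and 0 passed in either interaction, and 18, 36 and 27 were higher in KD by stage; same-numbered arrays deviated at r = -0.33 to 0.417, the highest between WT and KD at 16DAF, so the rule for pairing (every value above 0.1) was not met, and the block changed no other count by over 1.5 times.

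Leaving out single arrays, the early WT step had 0 to 1 higher, 2 to 7 lower and a median of -0.34 to -0.03. WT drying had 0 to 2 higher, 6 to 13 lower and -0.385 to -0.07. The early KD step had 0 to 6 higher and 0.155 to 0.455, and KD drying 10 to 21 lower and -0.665 to -0.405. KD minus WT had 7 to 23 higher and 0.6 to 0.88 at 14DAF, 28 to 36 and 1.195 to 1.575 at 16DAF, and 11 to 33 and 0.81 to 1.105 in dry seeds. The interactions had 0 to 1 higher early with a median of 0.41 to 0.74, and for drying 0 higher, 0 to 3 lower and -0.495 to -0.095. The called changes with the largest size in each comparison (45, up to 6 in each direction) turned sign in 0 of 900 recomputed values. Many of the 900 could not move, because a variance trend or leaving out an array outside the contrast does not alter the estimate. The count of 0 is therefore no measure of robustness. Changes near 0 named for contrast were not among the 45. The cause of the shifts under the alternatives was not tested.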
